A study of Homo sapiens with 9 samples.

Results

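The protocadherins are described here in HUES9 cells, an established human embryonic stem cell line, from bulk RNA sequencing. Members were the gene symbols beginning with PCDH, without the Y-linked copy, 71 of the 27730 symbols in the count table. Of these, 6 are names for whole loci, a constant exon or antisense RNAs and had no read in any library. The other 65 genes comprised 53 of the clustered families, 15 PCDHA, 16 PCDHB and 22 PCDHG genes, and 12 non-clustered genes. PCDHA13 was the 1 gene of the 65 with no read in any library.

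The cells, at passages 44 to 46, were kept on mitomycin-treated mouse fibroblasts, formed into embryoid bodies by centrifugation and plated on Matrigel. There were 9 libraries in 3 groups of 3, which the labels call independent experiments. The first group was collected untreated at day 1. The second had received 10 µM AA147 by day 13, an activator of the stress-responsive transcription factor ATF6. The third had received 10 µM RP22 by day 13, which the labels name as the inactive analogue. All groups share 1 cell line and the same differentiation procedure, and 2 separate differences, the day and the agent, lie between the untreated group and each day 13 group. No solvent control is analysed here, and mouse feeder reads cannot be told from human ones in the tables.

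Protocadherins are cadherin-type adhesion proteins of the cell surface. In the PCDHA and PCDHG clusters each variable exon has its own promoter and encodes the extracellular part of 1 isoform, and it is spliced to constant exons that all isoforms of the cluster share. PCDHB genes have no such constant exons. In neurons, promoter choice in these clusters, by CTCF, cohesin and DNA methylation, gives single cells different sets of isoforms and so a surface identity used in self-avoidance. The C-type isoforms, such as PCDHGC3 and PCDHGC4, lie at the end of the clusters and are regulated more uniformly. Non-clustered protocadherins are single genes, many with patterned expression in embryo and brain, and are divided into delta-1 genes (PCDH1, PCDH7, PCDH9, PCDH11X), delta-2 genes (PCDH8, PCDH10, PCDH17, PCDH18, PCDH19) and others.

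The variable-exon promoters of the isoforms on which the results turn are printed here, because each isoform is read from its own start. All are from RefSeq on GRCh38.p14, plus strand, and span 250 bases before to 50 bases after the start. The windows are chr5:141412737-141413036 for PCDHGA10, chr5:141417427-141417726 for PCDHGB7, chr5:141475716-141476015 for PCDHGC3 and chr5:141484780-141485079 for the first listed start of PCDHGC4. Capitals mark every CGCT, the core letters of a conserved sequence box of many clustered protocadherin promoters. A match of these letters alone does not show that a promoter has the box, since 54.3% of all promoters hold one. PCDHGC3 has 5 matches and the other three have 1 each.
PCDHGA10: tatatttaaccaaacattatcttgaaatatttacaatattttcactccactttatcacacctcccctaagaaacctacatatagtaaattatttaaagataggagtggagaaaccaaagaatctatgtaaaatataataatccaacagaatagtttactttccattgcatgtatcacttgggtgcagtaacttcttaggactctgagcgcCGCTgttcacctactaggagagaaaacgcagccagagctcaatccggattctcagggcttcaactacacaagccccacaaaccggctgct
PCDHGB7: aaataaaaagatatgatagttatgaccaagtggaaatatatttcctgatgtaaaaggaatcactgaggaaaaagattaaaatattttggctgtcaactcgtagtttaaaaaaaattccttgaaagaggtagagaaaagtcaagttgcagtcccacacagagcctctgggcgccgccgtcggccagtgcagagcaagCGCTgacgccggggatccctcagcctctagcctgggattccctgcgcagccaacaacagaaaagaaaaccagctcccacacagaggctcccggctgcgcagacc
PCDHGC3: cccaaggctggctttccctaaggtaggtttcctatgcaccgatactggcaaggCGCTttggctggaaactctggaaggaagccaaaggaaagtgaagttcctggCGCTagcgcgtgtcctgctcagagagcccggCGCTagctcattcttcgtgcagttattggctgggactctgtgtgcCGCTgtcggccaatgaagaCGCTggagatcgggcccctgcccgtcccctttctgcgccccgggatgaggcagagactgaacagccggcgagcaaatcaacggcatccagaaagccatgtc
PCDHGC4: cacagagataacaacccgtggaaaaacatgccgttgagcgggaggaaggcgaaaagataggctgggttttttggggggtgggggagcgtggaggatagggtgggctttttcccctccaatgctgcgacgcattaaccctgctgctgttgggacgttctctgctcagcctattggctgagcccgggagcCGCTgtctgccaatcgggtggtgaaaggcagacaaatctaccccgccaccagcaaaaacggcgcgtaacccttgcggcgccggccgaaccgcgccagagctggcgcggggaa

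RefSeq promoters were found for 47 of the 53 clustered genes, with 52 starts, and for 10 of the 12 non-clustered genes, with 12 starts. CGCT was present on the gene's strand in 51 of the 52 clustered promoters (98.1%), PCDHA9 being the exception. The share was 58.3% of the non-clustered promoters and 54.3% of all 35116 promoters of the same length. On either strand the shares were 98.1%, 83.3% and 70.0%. Between 100 and 10 bases before the start, CGCT was found in 84.6% of clustered promoters and 26.5% of all promoters. The longer match CGCTG, which contains CGCT, was found on the gene's strand in 44 of 52 clustered promoters (84.6%), 6 of 12 non-clustered and 30.7% of all promoters. The same letters were in the promoters of isoforms that were higher with AA147 (PCDHGA10, PCDHGB7). They were also in those of PCDHGC3 and PCDHGC4. In the main edgeR fit those isoforms were called lower only by the reads not shared with other isoforms, as described below. By their full counts neither was called there (edgeR adjusted p = 0.079 and 0.11), and the PCDHGC3 call was at the threshold (edgeR adjusted p = 0.049). With edgeR on library totals the full counts of each were called lower (log2 fold change -1.01 and -0.85, adjusted p = 0.0056 and 0.0051). DESeq2 called the full counts of PCDHGC3 lower (adjusted p = 0.029) but not those of PCDHGC4 (adjusted p = 0.22). A match is a description of the sequence only.

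Library totals lay between 9223039 and 10118267 reads. In each group replicates 2 and 3 were closer to each other than to replicate 1. The median absolute log2 difference over 14308 genes was 0.194 between RP22 replicate 1 and either other RP22 library, against 0.104 between replicates 2 and 3. The same gap was smaller at day 1 (0.183 and 0.214 against 0.129) and with AA147 (0.168 and 0.183 against 0.134). The labelled state was checked with marker lists, given as the range over libraries of the summed CPM (read counts relative to library size, with edgeR's TMM scaling). The 7 pluripotency genes summed to 3690 to 4200 at day 1, 339 to 469 with RP22 and 106 to 139 with AA147, where NANOG was at 0. The 12 neuron genes summed to 403 to 470, 1620 to 1750 and 494 to 513 in the same order, and the 11 neural progenitor genes to 1740 to 1830, 786 to 1260 and 712 to 925, with HES5 and FABP7 at 0 with AA147. The 7 neural crest genes gave 216 to 288, 451 to 904 and 90.9 to 131, with FOXD3 at 0 with AA147. The 8 endothelial genes gave 40.9 to 61.3, 91.4 to 189 and 7.76 to 25.7, with PECAM1 at 0 at day 1 and with AA147. The 8 mesenchyme genes gave 402 to 534, 11200 to 26700 and 61900 to 69900, and the 7 smooth muscle genes 557 to 616, 1190 to 1420 and 6850 to 7850. A sum gives most weight to abundant genes, and edgeR calls by gene differed from the sums for the neural lists. For AA147 against RP22, 8 of 9 tested progenitor genes were called lower and 0 higher (median log2 fold change -7.19). For RP22 against day 1, 4 of 10 were called higher and 3 lower (median 1.5). Of 9 tested neuron genes, 2 were called higher and 4 lower for AA147 against day 1 (median -1.65). In these bulk samples fewer cells of a type and less RNA per cell cannot be told apart, and the part of these marker differences in the results below was not tested.

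Most protocadherin RNA at day 1 came from non-clustered genes, and at day 13 most came from the clusters. Clustered genes held 36.0%, 45.1% and 42.8% of all protocadherin reads in the day 1 libraries. They held 66.7%, 62.6% and 62.8% with RP22 and 56.7%, 52.7% and 50.2% with AA147. The 3 groups did not overlap.

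**Figure D1:**
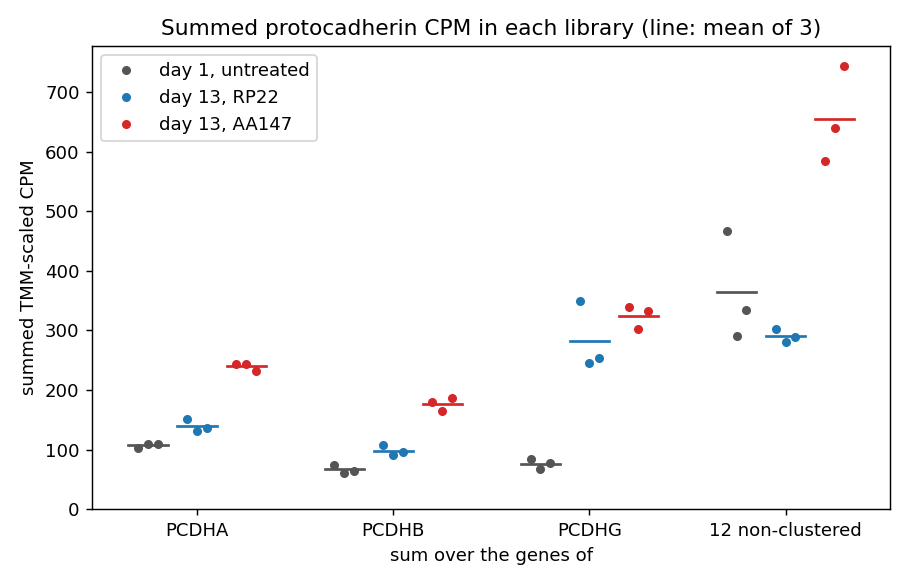
Summed TMM-scaled CPM (y axis, linear from 0) of the PCDHA, PCDHB and PCDHG clusters and of the 12 non-clustered genes (x axis) in each of 9 libraries, with a line at the mean of 3. PCDHA and PCDHB are highest in the AA147 libraries, whereas the PCDHG sums of RP22 and AA147 overlap.

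By cluster, the PCDHA sum was 103, 109 and 109 CPM in the day 1 libraries, 152, 131 and 136 with RP22 and 244, 243 and 232 with AA147. The 3 groups did not overlap. The PCDHB sum was 66.8 ± 7.25 CPM (SD, n = 3) at day 1, 98.5 ± 7.87 with RP22 and 177 ± 11.2 with AA147, in the same order and also without overlap. Unscaled PCDHB reads, 1155, 1013 and 1163 with RP22 and 1376, 1188 and 1472 with AA147, showed a smaller step between the agents. The PCDHG sum was 84.3, 67 and 78.1 CPM at day 1, 349, 245 and 254 with RP22 and 339, 302 and 332 with AA147. All 6 day 13 libraries lay above day 1, and RP22 replicate 1 was the highest of all. The non-clustered sum was 364 ± 91.6, 291 ± 11.9 and 655 ± 80.7 CPM in the same order of groups, with PCDH7 making up most of it with AA147.

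The counts of the clustered genes are not independent of each other, because the deposited values divide reads that fit several isoforms. In GENCODE v29 transcripts, the median share of a gene's 50-base windows that recur in every other gene of its cluster was 45% for PCDHA (18.5% to 52.6%) and 41.0% for PCDHG (24.8% to 45.4%). It was 0% for all PCDHB genes, although a median of 13.5% of their windows recurred in at least 1 other PCDHB gene (up to 45.7%). In the PCDHG rows the deposited values could be taken apart. Each of the 22 rows held 1 equal part of a shared pool, and PCDHGA6, PCDHGA11 and PCDHGC3 held 2, giving 25 parts that summed to a whole number of reads in 9 of 9 libraries. What was left after removing these parts was whole in 188 of 198 values (94.9%, within 0.011 reads). This remainder is called a gene's own reads below. It is a lower bound, since the part was taken from the smallest row, which is assumed to have none of its own.

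The shared pool was 362, 322 and 357 reads in the day 1 libraries, 1853, 1437 and 1604 with RP22 and 1349, 1043 and 1305 with AA147, which is 40.0% to 53.0% of PCDHG reads. The pool of every day 13 library exceeded that of every day 1 library. Of the 22 rows, 12 had at most 15 own reads in every library. The 5 genes PCDHGB6, PCDHGC3, PCDHGA10, PCDHGB7 and PCDHGA8 held 74.2% of all own reads at day 1, 91.8% with RP22 and 90.2% with AA147.

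**Figure D2:**
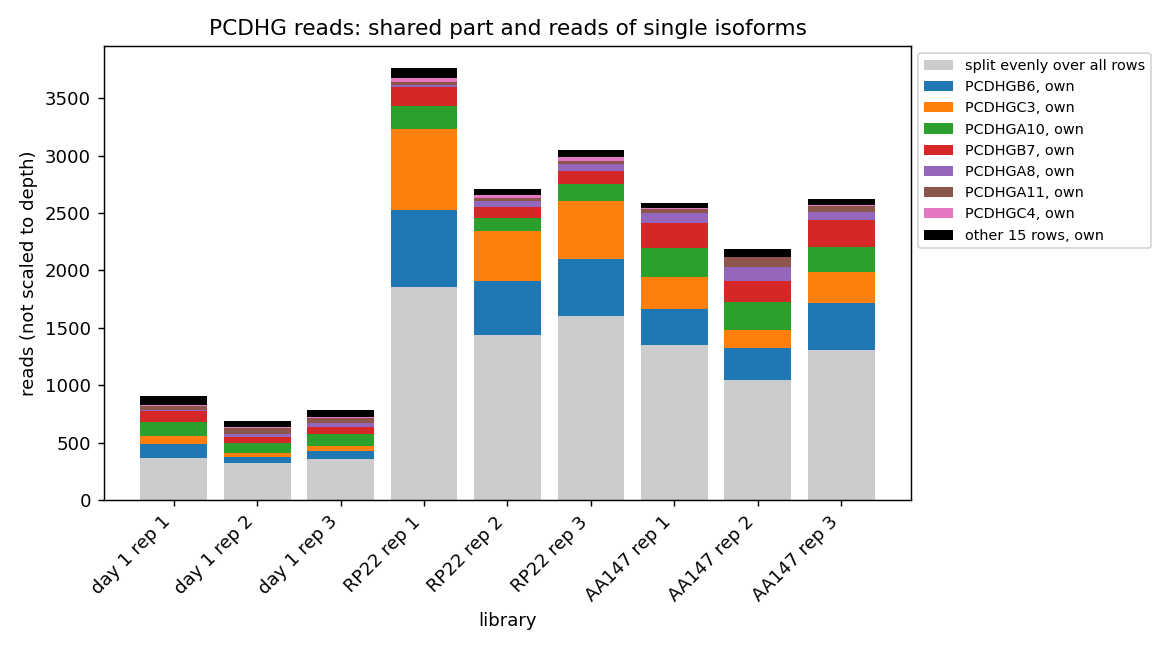
PCDHG reads (y axis, reads not scaled to depth) in each of 9 libraries (x axis), stacked as the pool divided evenly over all rows (grey) and the own reads of 7 genes and of the other 15 rows. The pool is 40.0% to 53.0% of each bar, and PCDHGB6 and PCDHGC3 take more of the RP22 bars than of the day 1 bars.

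AA147 was compared with RP22, its analogue in the labels, at the same dose and day. The PCDHA cluster was higher with AA147, PCDHA10 and PCDHA7 among its genes, and so were 7 of 15 tested PCDHB genes, PCDHB2 among them. Of all genes 29.8% were called higher and 32.2% lower. The PCDHG cluster as a whole did not pass the test, but its isoforms split by own reads, with PCDHGA10 and PCDHGB7 higher and PCDHGC4 lower. Of the non-clustered genes, PCDH7, PCDH17 and PCDH10 were higher, and 7 were lower, PCDH15 and PCDH20 by the most.

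In edgeR's quasi-likelihood test with Benjamini-Hochberg adjustment over all 14293 genes tested, 47 of the 53 clustered genes could be tested. Of these, 15 were called higher and 1 lower, where 29.8% of all genes were called higher and 32.2% lower. In either direction 34.0% of the tested clustered genes were called, where 62.0% of all genes were. The 22 PCDHG rows among these each hold parts of 1 shared pool, so this share counts that pool many times. By cluster, 4 of 10 PCDHA, 7 of 15 PCDHB and 4 of 22 PCDHG genes were called higher, and 1 PCDHA gene lower. Of the 12 non-clustered genes, 3 were called higher and 7 lower, 83.3% in either direction. The median log2 fold change was 0.37 over clustered, -1.08 over non-clustered and -0.03 over all genes. By cluster it was 0.67 for PCDHA, 0.60 for PCDHB and 0.08 for PCDHG. The calls depend on the scaling. With library totals in place of TMM the median of all genes was -0.49, and 13.3% of all genes were called higher and 59.7% lower. Of the clustered genes 7 were then called higher and 4 lower, with a median of -0.08. The same alternative gave 2 higher and 7 lower among the non-clustered genes.

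**Figure D3:**
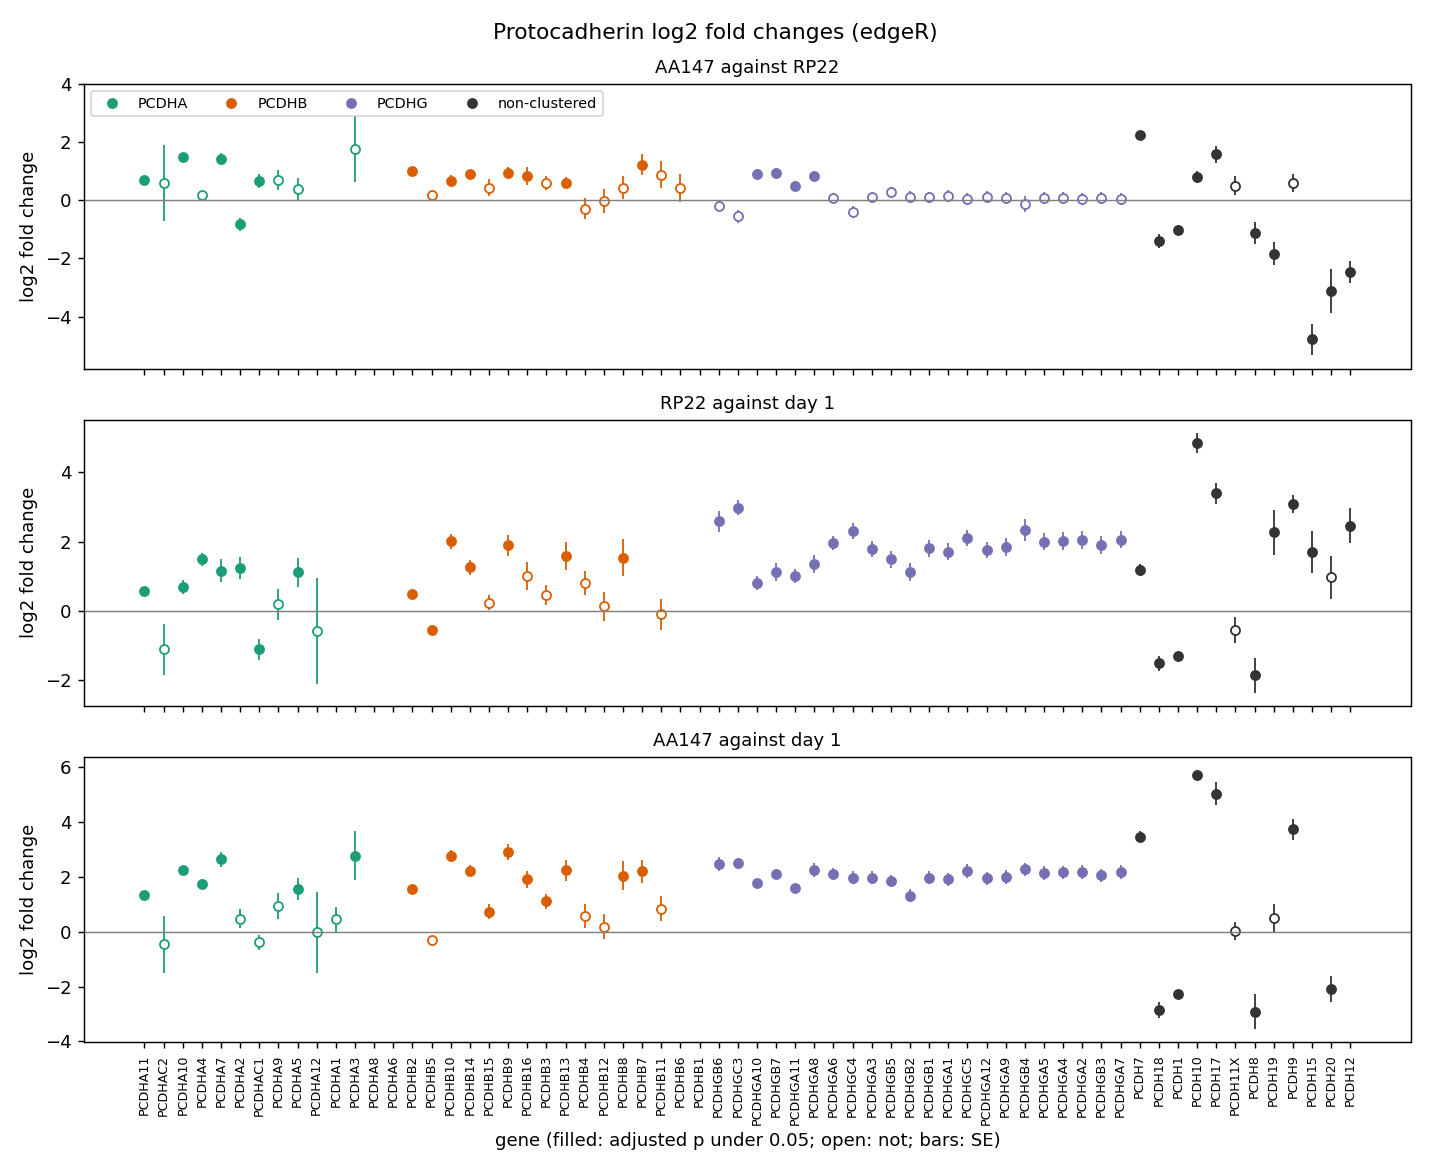
Log2 fold changes (y axis) with their standard errors for each tested protocadherin (x axis, ordered by class and then by level) in the 3 comparisons. Filled points passed an adjusted p of 0.05; the PCDHG points in a row share 1 pool of reads, and non-clustered genes reach from -4.78 to 2.22 for AA147 against RP22.

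The PCDHG rows gave 4 calls higher (PCDHGA8, PCDHGA10, PCDHGA11, PCDHGB7) and 0 lower of 22 with edgeR, beside 29.8% and 32.2% of all genes. There were also 0 lower at an unadjusted p under 0.05, and 1 lower with DESeq2. The 12 rows with at most 15 own reads had log2 fold changes from 0.03 to 0.14 and 0 calls in either direction (smallest edgeR adjusted p = 0.6). Summed to 1 row, the cluster had a log2 fold change of 0.11 ± 0.14 (SE; edgeR adjusted p = 0.53), with an interval of 2 SE on each side from -0.17 to 0.39. This value turned to -0.34 (adjusted p = 0.036) with library totals, and was 0.31 (adjusted p = 0.0065) without RP22 replicate 1. The pool alone had a log2 fold change of 0.07 ± 0.129 (adjusted p = 0.66), which also turned with library totals, to -0.38 (adjusted p = 0.02).

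Own reads were tested by the same fit with the pool as 1 row, a division chosen after seeing the data. PCDHGA10 had 119, 86 and 101 own reads at day 1, 194, 114 and 147 with RP22 and 250, 244 and 224 with AA147. Every AA147 library lay above every RP22 library, and on the CPM scale the means were 13.5 ± 4 with RP22 and 31.6 ± 2.9 with AA147 (SD, n = 3). The log2 fold change was 1.14 ± 0.2 (edgeR adjusted p = 0.0018). PCDHGB7 had 96, 46 and 63 own reads at day 1, 166, 96 and 114 with RP22 and 215, 187 and 231 with AA147, again without overlap between the agents (log2 fold change 1.22 ± 0.212, edgeR adjusted p = 0.0016). By their rows, pool included, PCDHGA10 and PCDHGB7 were called higher at 0.89 and 0.92 (edgeR adjusted p = 0.0028 and 0.0029). Those row calls were lost with limma on log2(RPKM + 0.1) (0.54 and 0.39, adjusted p = 0.053 and 0.13). PCDHGA8 had 13, 29 and 36, then 18, 56 and 63, then 86, 116 and 71 own reads in the same order of groups. Its call (log2 fold change 1.49 ± 0.424, edgeR adjusted p = 0.018) was lost without AA147 replicate 2 (adjusted p = 0.065) and with library totals (adjusted p = 0.066).

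The isoforms most used with RP22 did not follow these. PCDHGB6 had 130, 50 and 66 own reads at day 1, 675, 470 and 497 with RP22 and 317, 281 and 413 with AA147. These day 13 reads did not overlap before scaling, but on the TMM-scaled CPM the groups did (48.8 ± 12 with RP22, 44.2 ± 7.07 with AA147). The log2 fold change of -0.23 ± 0.187 had an interval from -0.60 to 0.14 (edgeR adjusted p = 0.31). With library totals it was -0.68 and passed the test (adjusted p = 0.0078). PCDHGC3, a C-type isoform, had 66, 41 and 49 own reads at day 1, 707, 435 and 503 with RP22 and 280, 157 and 265 with AA147. All AA147 libraries lay below all RP22 libraries, with a log2 fold change of -0.76 ± 0.273 (edgeR adjusted p = 0.049). That call is at the threshold. It was lost without any 1 of AA147 replicates 1, 2 and 3 or RP22 replicates 1 and 3, with adjusted p between 0.057 and 0.11, and was -0.48 without RP22 replicate 1.

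PCDHGC4, a C-type isoform needed for neuronal survival in mice, differed between its row and its own reads. The row of the table, 10.1, 7.6 and 8.39 CPM with RP22 and 7.99, 5.96 and 7.09 with AA147, overlapped and was not called (log2 fold change -0.40 ± 0.199, edgeR adjusted p = 0.11). Its own reads were 7, 4 and 3 at day 1, 35, 27 and 37 with RP22 and 7, 1 and 4 with AA147. These gave a log2 fold change of -2.53 ± 0.485 (edgeR adjusted p = 0.0025) between the agents, and from -3.19 to -2.09 with 1 library left out. PCDHGC5 had at most 7 own reads in any library and was at log2 fold change 0.03 by its row (edgeR adjusted p = 0.91), with an interval from -0.38 to 0.44. PCDHGA11, called higher by its row at 0.50, had 28, 26 and 23 own reads with RP22 and 39, 89 and 53 with AA147, a log2 fold change of 1.71 ± 0.355 (edgeR adjusted p = 0.0037).

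As a share of own PCDHG reads, PCDHGB6 was 17.7% ± 5.4 at day 1, 35.5% ± 1.3 with RP22 and 27.2% ± 3.7 with AA147 (SD, n = 3). PCDHGC3 was 11.6% ± 0.5, 35.3% ± 1.5 and 18.8% ± 4.5 in the same order. PCDHGA10 had the opposite order, with 23.0% ± 1.0, 9.7% ± 0.7 and 19.5% ± 2.3. PCDHGB7, with 15% ± 2.5, 8.0% ± 0.6 and 17.1% ± 0.6, was likewise lowest with RP22 but highest with AA147. For these 4 genes the AA147 shares lay nearer to those of day 1 than the RP22 shares did.

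In the PCDHA cluster, which serves axon growth and serotonergic wiring in the brain, the summed row was higher with AA147 by a log2 fold change of 0.68 ± 0.0765 (edgeR adjusted p = 0.00018). Its size depends on the scaling. Unscaled, the cluster had 1642, 1448 and 1643 reads with RP22 and 1865, 1757 and 1833 with AA147. That is a smaller step than on the TMM-scaled CPM (140 ± 11 and 240 ± 6.89, SD, n = 3). Of 10 genes tested, 4 were called higher and 1 lower, beside 29.8% and 32.2% of all genes, and DESeq2 called 3 higher and 1 lower. With library totals 2 were called higher and 1 lower, beside 13.3% and 59.7% of all genes. PCDHA10 was 6.52, 5.07 and 6.48 CPM at day 1, 10.3, 7.96 and 10.7 with RP22 and 26.7, 30.1 and 29.2 with AA147. All AA147 libraries were above all others, and the log2 fold change was 1.47 ± 0.138 (edgeR adjusted p = 7.9e-05). PCDHA7 was 2.42, 1.17 and 1.6, then 4.54, 3.8 and 3.24, then 11.4, 9.7 and 11.9 CPM, also without overlap (log2 fold change 1.42 ± 0.202, edgeR adjusted p = 0.00058). PCDHA4 was 16, 12.9 and 13.1 CPM with RP22 and 16.4, 15.9 and 18.5 with AA147, and the agents overlapped. Its log2 fold change between the agents was 0.18 ± 0.137 with an interval from -0.10 to 0.45 (edgeR adjusted p = 0.29).

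PCDHA11, PCDHA12 and PCDHAC2 hold most of the cluster, but their division is unsteady. PCDHAC2, a C-type isoform needed for the tiling of serotonergic axons, had 325.781, 23 and 31 reads in the 3 AA147 libraries, and PCDHA12 had reads in 4 of 9 libraries. Their sum with PCDHA11 was whole in every library, with 808, 897 and 842 reads at day 1, 1145, 1014 and 1123 with RP22 and 1300, 1220 and 1240 with AA147. The sum made up 76.7% of PCDHA reads at day 1, 69.4% with RP22 and 68.9% with AA147, and was higher with AA147 than with RP22 by a log2 fold change of 0.68 ± 0.0808 (edgeR adjusted p = 0.00025). PCDHA11 alone was called higher at 0.69 (edgeR adjusted p = 0.00054), a call lost with library totals (0.23, adjusted p = 0.054) and with limma on log2(RPKM + 0.1) or log2(RPKM + 1) (0.22 and 0.20, adjusted p = 0.1). PCDHAC2 alone had a standard error of 1.31 about 0.58.

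PCDHA2 was the 1 clustered gene called lower (log2 fold change -0.83 ± 0.232, edgeR adjusted p = 0.015), with 7.05, 6.33 and 8.89 CPM with RP22 and 3.54, 5.26 and 4.55 with AA147. It too shares reads, with PCDHA3. Together they had 76, 89 and 107 reads with RP22 and 48, 53 and 47 with AA147, and the sum did not pass (log2 fold change -0.39, edgeR adjusted p = 0.1). It passed with library totals (-0.85, edgeR adjusted p = 0.005). PCDHAC1, the other C-type PCDHA gene, was 2.23, 2.08 and 1.99 CPM with RP22 and 3.8, 3.6 and 3.16 with AA147. Its call (log2 fold change 0.65 ± 0.243, edgeR adjusted p = 0.047) was lost with DESeq2 (adjusted p = 0.17) and without any single one of the 6 libraries.

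The PCDHB cluster has no shared constant exons, and 0% of its windows recurred in every member, so its rows hold no cluster-wide pool of that kind. Of 15 genes tested, 7 were called higher with AA147 and 0 lower with edgeR, beside 29.8% and 32.2% of all genes. At an unadjusted edgeR p under 0.05 there were also 0 lower. DESeq2 called 5 higher and 0 lower, and did not call PCDHB7 (adjusted p = 0.056) or PCDHB13 (adjusted p = 0.084). With library totals 3 of the 15 were called higher and 0 lower, beside 13.3% and 59.7% of all genes. PCDHB2, the most abundant, was 30.7, 24.3 and 27.7 CPM at day 1, 42.3, 37.4 and 35.9 with RP22 and 78.2, 79.7 and 87 with AA147. The groups did not overlap, and the log2 fold change of 0.99 ± 0.0847 (edgeR adjusted p = 5.3e-05) was 0.54 (adjusted p = 0.00047) with library totals.

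PCDHB14 was 6.12, 6.88 and 7.48 CPM with RP22 and 14.1, 12.9 and 13.4 with AA147, without overlap (log2 fold change 0.89 ± 0.157, edgeR adjusted p = 0.0017). PCDHB10 was 12.9, 9.86 and 9.55 CPM with RP22 and 16.1, 16.1 and 22.4 with AA147, a smaller gap. Its call at 0.66 ± 0.188 (edgeR adjusted p = 0.015) was lost with library totals (adjusted p = 0.31) and without AA147 replicate 3 or RP22 replicate 3. The other 4 genes called higher were PCDHB7, PCDHB9, PCDHB13 and PCDHB16, with log2 fold changes from 0.60 to 1.22. PCDHB5 was 10.1, 9.41 and 10.7 CPM with RP22 and 12.2, 11.9 and 12.1 with AA147. The groups did not overlap, but its log2 fold change of 0.17 ± 0.138 had an interval from -0.11 to 0.44 (edgeR adjusted p = 0.32).

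**Figure D4:**
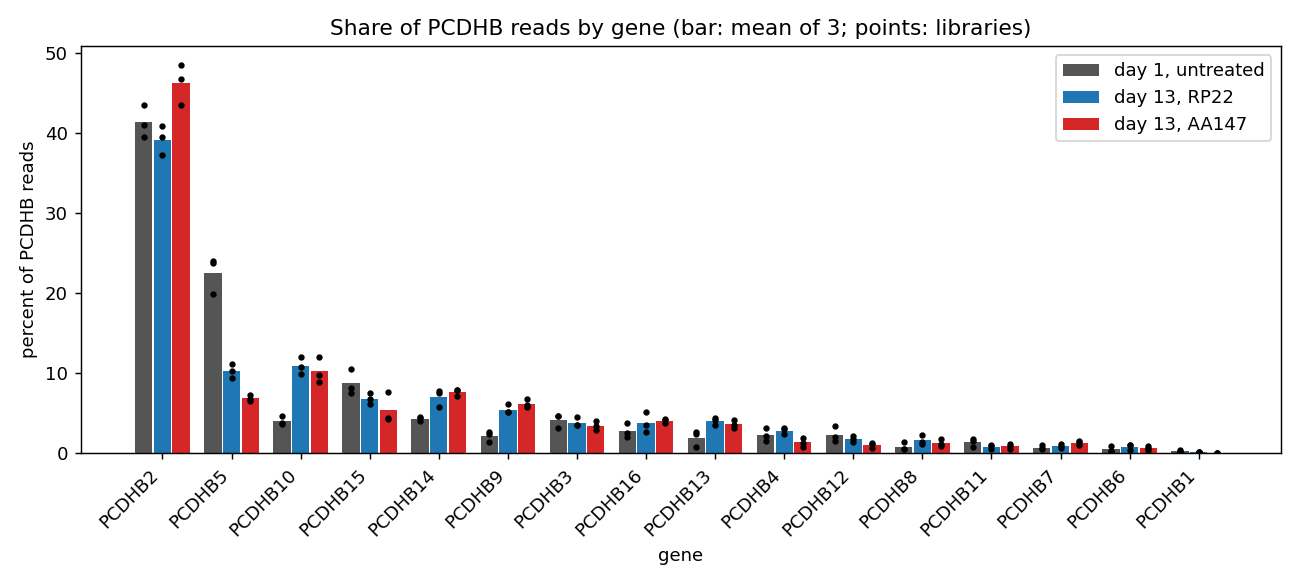
Percent of all PCDHB reads (y axis, from 0) by gene (x axis), with bars for the mean of 3 libraries per group and points for each library. PCDHB2 holds the largest share in all groups, and PCDHB5 goes from 22.5% at day 1 to 10.3% with RP22 and 6.84% with AA147.

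Among the non-clustered genes, levels are compared per gene length in the deposited RPKM. PCDH1 (32.9 ± 5.73 RPKM, SD, n = 3) and PCDH18 (28.0 ± 7.92) were highest at day 1 and overlapped, followed by PCDH7 (8.61 ± 2.15) and PCDH8 (7.81 ± 5.08), which overlapped too. With RP22 the order was PCDH7 (18.0 ± 0.624), PCDH1 (13.6 ± 1.69), PCDH18 (10.4 ± 1.49) and PCDH10 (5.40 ± 1.21), and of these neighbours only PCDH1 and PCDH18 overlapped. With AA147, PCDH7 stood alone at 63.3 ± 7.91, and PCDH10 (6.83 ± 0.859), PCDH1 (4.58 ± 1.13) and PCDH17 (4.15 ± 1.62) came after it. PCDH10 lay above PCDH1 in every library, and PCDH1 and PCDH17 overlapped. Every other non-clustered gene had a mean of at most 2.87 RPKM with AA147.

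**Figure D5:**
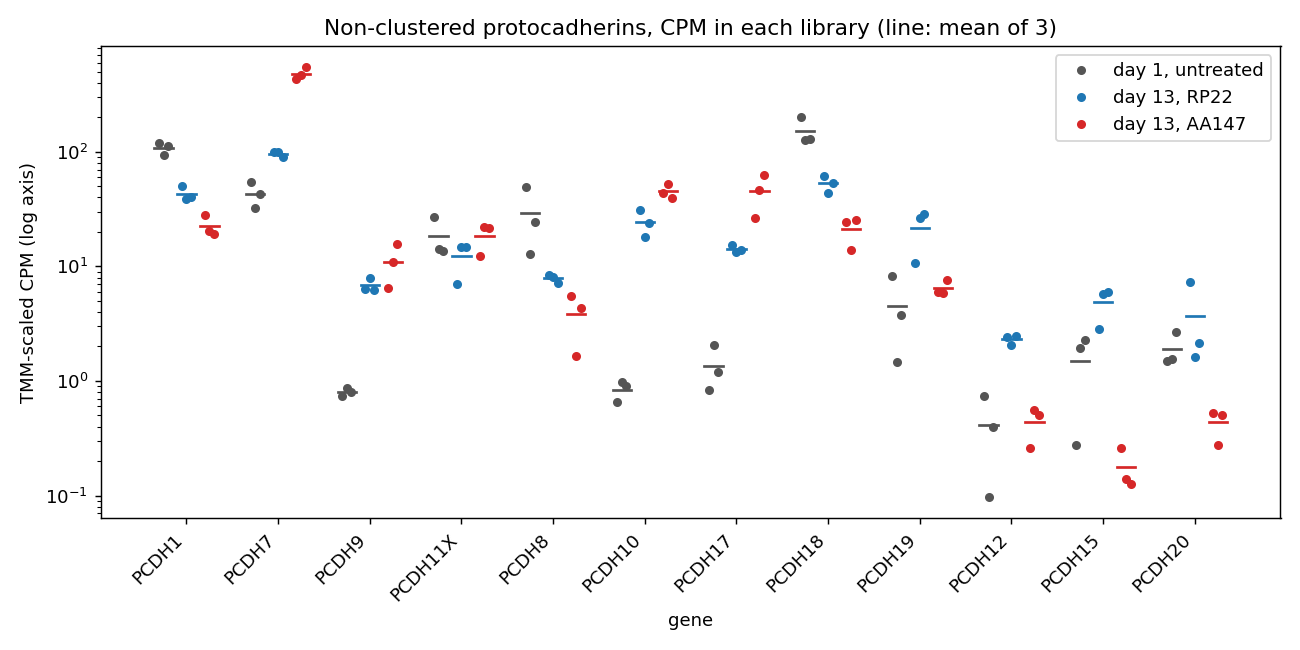
TMM-scaled CPM (y axis, log scale) of the 12 non-clustered protocadherins (x axis, delta-1, then delta-2, then the others) in each of 9 libraries, with a line at the mean of 3. PCDH7, PCDH10 and PCDH17 are highest with AA147, and PCDH12, PCDH15 and PCDH20 are lower with AA147 than with RP22.

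PCDH7, a delta-1 gene, was 54.6, 32.4 and 42.4 CPM at day 1, 99.4, 98.6 and 90.7 with RP22 and 431, 464 and 545 with AA147. The 3 groups were fully separate. The log2 fold change between the agents was 2.22 ± 0.0975 (edgeR adjusted p = 3.9e-06), a 4.67-fold difference, and it stayed between 2.14 and 2.30 when 1 library was left out. PCDH1, the delta-1 gene best known from airway epithelium, was 119, 94.2 and 113, then 50.3, 39 and 40.1, then 28, 20.2 and 19.2 CPM. It was lower with AA147 than with RP22 in every library (log2 fold change -1.03 ± 0.174, edgeR adjusted p = 0.0015).

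PCDH9 was 6.4, 7.87 and 6.23 CPM with RP22 and 6.42, 10.9 and 15.6 with AA147. The agents overlapped through AA147 replicate 1, and the log2 fold change of 0.59 had an interval from -0.01 to 1.19 (edgeR adjusted p = 0.12); without that library it was 0.86 (adjusted p = 0.014). PCDH11X, whose near-identical Y-linked copy can share its reads and is not analysed here, was 26.8, 14.2 and 13.7, then 7.05, 14.9 and 14.7, then 12.2, 21.9 and 21.5 CPM. Replicate 1 was the outlying library in each group, and the agents did not differ past the test (log2 fold change 0.50, interval -0.18 to 1.17, edgeR adjusted p = 0.24). With replicate 1 left out of both groups PCDH11X was called higher with AA147 (0.45, adjusted p = 0.005).

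The delta-2 genes all passed the test, in both directions. PCDH17, which organises presynaptic vesicle pools, was 15.5, 13.3 and 13.8 CPM with RP22 and 26.2, 46.7 and 62.5 with AA147, with a log2 fold change of 1.57 ± 0.299 (edgeR adjusted p = 0.0041). PCDH10, which links to the WAVE actin regulators in growing axons, was 31.1, 18.2 and 23.9 CPM with RP22 and 43.5, 52.1 and 39.9 with AA147. The groups did not overlap, but its call at 0.79 ± 0.196 (edgeR adjusted p = 0.0098) became 0.34 (adjusted p = 0.12) with library totals.

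PCDH18 was 203, 127 and 129 CPM at day 1, 62.1, 44 and 53 with RP22 and 24.2, 14 and 25.6 with AA147, stepwise lower without overlap (log2 fold change between the agents -1.41 ± 0.242, edgeR adjusted p = 0.0023). PCDH19, a partner of N-cadherin linked to an X-chromosomal epilepsy, was 10.6, 26.2 and 28.7 CPM with RP22 and 6.02, 5.82 and 7.59 with AA147, with RP22 replicate 1 the lowest of its group (log2 fold change -1.84 ± 0.391, edgeR adjusted p = 0.0059). PCDH8, a protocadherin of the paraxial mesoderm and of active synapses, was 8.34, 8.14 and 7.14 CPM with RP22 and 5.5, 1.66 and 4.3 with AA147. Its call (log2 fold change -1.12 ± 0.372, edgeR adjusted p = 0.03) was lost without AA147 replicate 3, RP22 replicate 2 or RP22 replicate 3 (adjusted p from 0.059 to 0.077), and with all 9 libraries in 1 fit (adjusted p = 0.14).

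The 3 genes outside the delta groups were all lower with AA147. PCDH15, the tip-link partner of CDH23 in hair cells, had 31, 63 and 72 reads with RP22 and 2, 1 and 1 with AA147, a log2 fold change of -4.78 ± 0.522 (edgeR adjusted p = 0.00016). PCDH12, an endothelial protocadherin, had 26, 23 and 30 reads with RP22 and 2, 4 and 4 with AA147 (log2 fold change -2.46 ± 0.375, edgeR adjusted p = 8e-04). The summed endothelial markers were lower with AA147 as well, 7.76 to 25.7 against 91.4 to 189 CPM, with PECAM1 at 0. PCDH20, expressed in parts of the nervous system, had 79, 18 and 26 reads with RP22 and 4, 2 and 4 with AA147 (log2 fold change -3.12 ± 0.756, edgeR adjusted p = 0.0087). RP22 replicate 1 was far above the other RP22 libraries for this gene, and without it the log2 fold change was -2.15 (adjusted p = 0.0028).

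Day 13 was compared with day 1 in each arm. Both comparisons use the same day 1 libraries, so their values are given side by side only, and day and agent cannot be told apart in them. The PCDHG cluster was higher at day 13 in both arms, through the pool and through PCDHGB6 and PCDHGC3. Of the non-clustered genes PCDH10, PCDH17, PCDH9 and PCDH7 were higher in both, and PCDH1, PCDH18 and PCDH8 were lower in both.

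With RP22, 34 of 45 tested clustered genes were called higher than at day 1 and 2 lower, where 36.6% of 14559 genes were called higher and 35.2% lower (edgeR, adjusted over all genes). Of 12 non-clustered genes 7 were called higher and 3 lower. The medians were 1.35 for clustered, 1.44 for non-clustered and 0.02 for all genes on the log2 fold change scale. With AA147, 38 of 48 tested clustered genes were called higher and 0 lower, where 38.7% of 13761 genes were called higher and 40.4% lower. At an unadjusted p under 0.05 there was 1 lower and with DESeq2 there were 0. Of 10 non-clustered genes tested, 4 were called higher and 4 lower, and DESeq2 called 5 lower. The medians were 1.98, 0.26 and -0.04.

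All 22 PCDHG rows were called higher in each arm, but this count repeats 1 pool. With the pool as a single row beside the own reads, 16 clustered rows were called higher with RP22 and 23 with AA147. The pool had a log2 fold change of 2.12 ± 0.126 with RP22 (edgeR adjusted p = 4.1e-06) and 2.27 ± 0.104 with AA147 (edgeR adjusted p = 5.2e-08). Own reads of PCDHGC3 had 3.29 with RP22 and 2.61 with AA147, and those of PCDHGB6 had 2.64 and 2.49, all past the test. PCDHGA10 own reads had 0.47 (edgeR adjusted p = 0.1) with RP22 and 1.68 (edgeR adjusted p = 3.7e-06) with AA147. The RP22 value passed with library totals (0.56, adjusted p = 0.046) and without RP22 replicate 2 (0.63, adjusted p = 0.046). PCDHGB7 own reads had 0.77 (edgeR adjusted p = 0.054) and 2.08 (edgeR adjusted p = 1.6e-05). The RP22 value passed with DESeq2 (0.79, adjusted p = 0.037), with library totals (0.86, adjusted p = 0.029) and with replicate 1 left out of both groups (0.76, adjusted p = 0.0017). It also passed without day 1 replicate 1 (1.06, adjusted p = 0.02) or RP22 replicate 2 (0.93, adjusted p = 0.045). PCDHGC4 own reads had 2.68 with RP22 (edgeR adjusted p = 0.00026) and were too few to test with AA147.

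For PCDHGA11 the pool turned the direction. Its row was called higher with RP22 than at day 1, with a log2 fold change of 1.00 ± 0.192 (edgeR adjusted p = 0.0018). Its own reads were 32, 54 and 46 at day 1 and 28, 26 and 23 with RP22, a log2 fold change of -0.89 ± 0.294 (edgeR adjusted p = 0.024). That call on own reads was lost with DESeq2 (adjusted p = 0.056) and without RP22 replicate 2 or 3 or day 1 replicate 2 or 3 (adjusted p from 0.062 to 0.096), while the sign stayed negative in each of these.

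The PCDHA row had a log2 fold change of 0.40 ± 0.0815 with RP22 (edgeR adjusted p = 0.0025) and 1.17 ± 0.07 with AA147 (edgeR adjusted p = 3e-07). PCDHA4 was among the genes with the largest values with RP22, 1.49 ± 0.187 (edgeR adjusted p = 0.00017), and its share of PCDHA reads was 4.67% at day 1, 10.0% with RP22 and 7.07% with AA147. PCDHA10 went from 5.64% of PCDHA reads at day 1 to 6.90% with RP22 and 11.96% with AA147. PCDHAC1 went against its cluster, with 3.07, 5.07 and 5.68 CPM at day 1, 2.23, 2.08 and 1.99 with RP22 and a log2 fold change of -1.12 ± 0.294 (edgeR adjusted p = 0.0087). Its values with AA147 overlapped those of day 1 (log2 fold change -0.39, edgeR adjusted p = 0.24). That comparison passed with library totals (-0.82, edgeR adjusted p = 0.024) and with replicate 1 left out of both groups (-0.67, edgeR adjusted p = 0.039).

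In the PCDHB cluster PCDHB10 had the largest change with RP22, from 2.7, 2.34 and 2.99 CPM at day 1 to 12.9, 9.86 and 9.55 (log2 fold change 2.01 ± 0.218, edgeR adjusted p = 7.5e-05), and its value with AA147 was 2.76 ± 0.212. PCDHB2 had 0.49 with RP22 (edgeR adjusted p = 0.0058) and 1.56 with AA147 (edgeR adjusted p = 6.2e-07). PCDHB5 went against its cluster. It was 14.9, 14.6 and 15.3 CPM at day 1, above all RP22 libraries (log2 fold change -0.56 ± 0.131, edgeR adjusted p = 0.0052) and all AA147 libraries (-0.31, edgeR adjusted p = 0.059). The AA147 value passed with library totals (-0.74, edgeR adjusted p = 0.00059), with all 9 libraries in 1 fit (edgeR adjusted p = 0.044) and with limma on log2(RPKM + 0.1) (-0.73, adjusted p = 0.00045). It did not pass with DESeq2 (-0.29, adjusted p = 0.19).

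PCDH10 was low at day 1, with 0.652, 0.975 and 0.897 CPM, and had a log2 fold change of 4.85 ± 0.285 with RP22 (edgeR adjusted p = 3.9e-06) and 5.72 ± 0.199 with AA147 (edgeR adjusted p = 1e-08). PCDH17 was 0.838, 2.05 and 1.2 CPM at day 1, with 3.39 ± 0.296 and 5.04 ± 0.432. PCDH9 was 0.745, 0.877 and 0.798 CPM at day 1, with 3.08 ± 0.257 and 3.74 ± 0.378. PCDH7 had 1.17 ± 0.175 and 3.47 ± 0.19, all 4 genes passing the test in both arms.

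PCDH1 had log2 fold changes of -1.32 ± 0.131 with RP22 and -2.27 ± 0.159 with AA147, and PCDH18 of -1.52 ± 0.221 and -2.84 ± 0.289, all past the test. PCDH8, at 49.6, 12.7 and 24.6 CPM in the day 1 libraries, had -1.87 ± 0.499 (edgeR adjusted p = 0.015) and -2.91 ± 0.639 (edgeR adjusted p = 0.0055). Its call with RP22 was lost without RP22 replicate 1 (adjusted p = 0.059) or 3 (adjusted p = 0.055).

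PCDH12, PCDH15, PCDH19 and PCDH20 differed between the arms. PCDH12 was higher with RP22 than at day 1 (log2 fold change 2.46 ± 0.495, edgeR adjusted p = 0.0023), and PCDH15 (1.70, edgeR adjusted p = 0.035) and PCDH19 (2.27, edgeR adjusted p = 0.021) were too. Leaving out 1 of RP22 replicates 2 or 3 ended both of the last calls, as did leaving out day 1 replicate 2 for PCDH15 and day 1 replicate 3 for PCDH19 (adjusted p from 0.052 to 0.099). With AA147, PCDH12 and PCDH15 did not pass edgeR's count filter, and DESeq2, run without that filter, called PCDH15 lower (-3.09, adjusted p = 0.012) and did not call PCDH12 (0.10, adjusted p = 0.95). PCDH19 did not pass (0.51, edgeR adjusted p = 0.39; 1.30 and adjusted p = 0.0099 without day 1 replicate 1), and PCDH20 was lower (-2.09 ± 0.468, edgeR adjusted p = 0.0024). PCDH20 did not pass with RP22 (0.96, edgeR adjusted p = 0.19). The difference between the arms is the comparison of AA147 with RP22 given above.

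Genes that act on the cluster promoters or carry the signal inside the cell were described from lists chosen with earlier results known. Of 22 regulators of the clusters (CTCF, cohesin, and enzymes of DNA and histone methylation), 21 were tested between the agents, 1 was called higher and 11 lower, beside 29.8% and 32.2% of all genes, with a median log2 fold change of -0.23. With library totals 0 were called higher and 20 lower, beside 13.3% and 59.7% of all genes. DNMT3B, the de novo DNA methyltransferase of early embryonic cells, had the largest difference (-2.37 ± 0.302, edgeR adjusted p = 0.00095), followed by the histone methyltransferase gene EHMT2 (-0.95), the maintenance methyltransferase gene DNMT1 (-0.72) and the cohesin gene SMC3 (-0.67). CTCF had -0.23 (edgeR adjusted p = 0.019), and the cohesin gene STAG1, at 0.32 (edgeR adjusted p = 0.027), was the 1 called higher, and was at -0.14 with library totals. Against day 1, DNMT3B had a log2 fold change of -4.40 with RP22 and -6.68 with AA147 (edgeR adjusted p = 3.5e-05 and 2.5e-10). With RP22, 1 of 22 regulators was called higher and 16 lower, beside 36.6% and 35.2% of all genes. With AA147, 2 were called higher and 15 lower, beside 38.7% and 40.4%. With library totals these were 2 and 12 with RP22, beside 40.0% and 31.4% of all genes. With AA147 they were 0 and 20, beside 28.1% and 53.9%.

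Of 18 intracellular partners of protocadherins, 9 were called higher and 5 lower with AA147 against RP22 (median 0.29), beside the same shares of all genes, 29.8% and 32.2%. With library totals 2 were called higher and 9 lower (median -0.17), beside 13.3% and 59.7% of all genes. The sign of the list's median thus changed with the scaling. It stayed above the median of all genes, which was -0.03 with TMM and -0.49 with library totals. The receptor kinase gene RET, which phosphorylates clustered protocadherins, had -3.94 ± 0.427 (edgeR adjusted p = 0.00016). PTK2B, one of the focal adhesion kinases that the PCDHA and PCDHG constant parts inhibit, had 1.29 ± 0.172 (edgeR adjusted p = 6e-04). The WAVE complex genes WASF3 and WASF1 had -1.98 (edgeR adjusted p = 0.0092) and -1.02 (edgeR adjusted p = 0.00026), and ABI2 had -0.98 (edgeR adjusted p = 0.00019). Other genes of that complex were called higher: ABI1 (0.90), NCKAP1 (0.54), WASF2 (0.40) and CYFIP1 (0.39), with edgeR adjusted p of at most 0.0039. With library totals these were 0.45, 0.09, -0.05 and -0.06. BRK1 and CYFIP2 were not called (edgeR adjusted p = 0.078 and 0.18). Against day 1, 6 of the 18 partners were called higher and 4 lower with RP22 (36.6% and 35.2% of all genes), and 11 and 5 with AA147 (38.7% and 40.4%). With library totals the AA147 numbers were 7 and 8, beside 28.1% and 53.9% of all genes.

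Of 47 other cadherin superfamily genes, 34 were tested between the agents, 13 were called higher and 12 lower (median 0.11), beside 29.8% and 32.2% of all genes. With library totals 9 were called higher and 13 lower (median -0.35), beside 13.3% and 59.7% of all genes. CDH19, a Schwann cell and neural crest cadherin, had 439, 93 and 121 reads with RP22 and 1, 0 and 0 with AA147, or 19.7 ± 18.2 CPM (SD, n = 3) with RP22. The ratio of the sums, 653 reads and 1, was 439 after scaling, with a 95% exact counting interval from 78.5 to 1.74e+04 that covers counting error only. Without RP22 replicate 1 the ratio was 211, with an interval from 37.5 to 8.37e+03. CDH5, the VE-cadherin of endothelium, had a log2 fold change of -3.73 ± 0.476 (edgeR adjusted p = 0.00042), the photoreceptor gene CDHR1 -3.58 and CDH23, the tip-link partner of PCDH15, -3.31 ± 0.751 (edgeR adjusted p = 0.0068). The neural crest marker sum was 451 to 904 CPM with RP22 and 90.9 to 131 with AA147, and its part in these values was not tested. Among the 13 genes called higher, the largest values were those of CDH10 (2.37, edgeR adjusted p = 0.00066), CDH13 (2.37, edgeR adjusted p = 0.00031) and CLSTN2 (1.98, edgeR adjusted p = 0.00049). Against day 1, 22 of 35 tested were called higher and 1 lower with RP22, beside 36.6% and 35.2% of all genes, and 22 of 28 higher and 3 lower with AA147, beside 38.7% and 40.4%.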

How the data were processed

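Total RNA of 9 libraries was sequenced on an Illumina platform, per the labels' protocols. The authors deposited 2 tables, per the file headers, of expected counts and of RPKM, which divides reads by gene length and library size. The submitters' processing notes name GRCh37.p13. Neither the aligner nor the counter is given in the sources used here. Of the count values 41.43% stood at a floor of 0.05, read as 0 (0.002 in the RPKM table), and 0.9142% were fractions of shared reads. Rows of the 42 symbols present on 2 rows were summed and values rounded.

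Counts were tested in edgeR 4.0.16 (R 4.3.3) by the robust quasi-likelihood test after filterByExpr and TMM, on the 6 libraries of each comparison, with Benjamini-Hochberg adjustment over all genes tested and a threshold of 0.05. The standard error is the absolute log2 fold change over the root of F. The biological coefficient of variation was 15.4% (AA147 against RP22), 15.6% (RP22 against day 1) and 12.3% (AA147 against day 1). DESeq2 1.42.0, limma 3.58.1 on log2(RPKM + 0.1) and log2(RPKM + 1), other scalings and filters, a replicate block, leaving out libraries and summed or divided cluster rows were alternatives. The script was tested on simulated data. The labels do not say more of the cultures than that experiments were independent. Exact counting intervals and floors cover counting error only, whereas intervals of 2 SE come from the edgeR fit.

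Members and gene lists were chosen with earlier results of these data known, and the division of PCDHG into pool and own reads was chosen after seeing the data. Values are given for each non-clustered gene with a mean of at least 2 CPM in 1 group, the 4 genes with the most reads in each cluster, the C-type genes, genes called against their class, and up to 4 genes with the largest change of each other list. PCDHA7, PCDHGA8, PCDHGA11, PCDHGB2, PCDHGB4 and the genes of PCDHB called higher beyond the first 4 fall outside this rule and were named after their values were seen. The same holds for the WAVE complex genes other than WASF3 and WASF1, and for CDH10, CDH13 and CLSTN2. Promoter sequences are RefSeq's on GRCh38.p14, matched by symbol, and no coordinates were joined to the counts. Protein sequences were not used here.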

Additional observations from a re-analysis of the deposited data

How the results depend on the processing

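For AA147 against RP22, the 15 clustered genes called higher became 7 with library totals alone, 4 with limma at either pseudocount, 8 with PCDHA and PCDHG each summed to 1 row, and 9 to 14 with 1 library left out (9 without RP22 replicate 3). The 1 called lower became 2 with DESeq2, 4 with library totals, 0 with all 9 libraries in 1 fit, 2 with replicate 1 left out of both groups, 4 with limma at either pseudocount, 0 with summed clusters, 2 with the PCDHG pool as 1 row and 0 to 1 with 1 library left out (0 without RP22 replicate 3). The 3 non-clustered genes called higher became 5 with replicate 1 left out of both groups, and the 7 called lower became 4 with limma at either pseudocount. The PCDHG row (0.11) was -0.34 with library totals, 0.25 with replicate 1 left out of both groups, and 0.03 to 0.31 with 1 library left out. The PCDHG pool (0.07) was -0.38 with library totals. For RP22 against day 1, the 34 clustered genes called higher became 8 with summed clusters and 16 with the pool as 1 row, and the 2 called lower became 1 with limma at either pseudocount and 1 with summed clusters. For AA147 against day 1, the 38 called higher became 12 with summed clusters and 23 with the pool as 1 row. The 0 called lower there became 2 with library totals, 1 in the fit of all 9 libraries, 2 with replicate 1 left out of both groups, 1 with limma at either pseudocount and 0 to 1 with 1 library left out (1 without AA147 replicate 1). Fewer rows exist by construction with summed clusters or the pool as 1 row. Library totals also moved the shares of all genes called, to 13.3% higher and 59.7% lower for AA147 against RP22. For AA147 against day 1 they were 28.1% and 53.9%. The cause of the other differences was not tested.

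Same-numbered libraries of AA147 and RP22 had correlated deviations of 0.21, 0.16 and 0.07, and those of the other comparisons from -0.07 to 0.06, so the replicate number was not taken to pair the samples. With a replicate block the clustered genes called lower for AA147 against RP22 became 2, and no other count or cluster value named above left its side. The block called PCDH11X higher for AA147 against RP22 (0.52, adjusted p = 0.018) and PCDHGB7 own reads higher for RP22 against day 1 (0.78, adjusted p = 0.0093), and the PCDHGC3 row lower for AA147 against RP22 (-0.56, adjusted p = 0.0049). It ended the calls of PCDHAC1 for AA147 against RP22 (adjusted p = 0.086) and, for RP22 against day 1, of PCDH19 (adjusted p = 0.053) and the sum of PCDHA11, PCDHA12 and PCDHAC2 (adjusted p = 0.079). For single genes, 1019 values under an alternative kept their call and direction, 262 stayed uncalled (29 of them with the other sign), 44 lost the call and 27 gained one. For the divided rows these numbers were 207, 74 (2 with the other sign), 23 and 14, and 1 turned, the pool given above. At 9223039 to 10118267 reads a library, PCDH12, PCDH15 and the 12 PCDHG genes with at most 15 own reads are limited by depth.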

Other observations

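PCDHGB4 had 28 own reads in RP22 replicate 1. In the other 8 libraries it was the smallest PCDHG row, alone or tied, so its value of 0 there is set by the method. PCDHGB2, with 22, 8 and 17 own reads at day 1, had 4, 4 and 5 with RP22 and 2, 9 and 3 with AA147, and it was too low to test. Both genes' rows were called higher at day 13 in both arms with edgeR.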
